A study of Mus musculus with 2 samples.

Results

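The nuclear lamina and LINC complex genes were 10 genes taken by symbol: the lamins Lmna, Lmnb1 and Lmnb2, the inner nuclear membrane proteins Lbr, Emd and Tmpo, the SUN proteins Sun1 and Sun2, and the nesprins Syne1 and Syne2. All 10 symbols were found among the 55536 mouse genes listed for each library. The series held 2 total RNA-seq libraries from hearts of male B6CASTF1/J mice aged 4 days, labelled as biological replicates 1 and 2 of the same condition; this strain is the F1 hybrid of C57BL/6J and CAST/EiJ. Each library was made from 300 ng of RNA as a stranded, ribosomal-RNA-reduced library with ERCC spike-ins. The hearts were separate biosamples under a single donor record, so the spread between them may be partly technical, and with 1 condition and 2 libraries the smallest exact 2-sided p a sign-flip test could give was 0.5. The values below are therefore described without a test.

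The nuclear lamina is a mesh of A-type and B-type lamins beneath the inner nuclear membrane. Proteins of that membrane, among them emerin, the LAP2 proteins and the lamin B receptor, tie the mesh to chromatin, while SUN proteins reach across the perinuclear space to the KASH domains of nesprins in the outer membrane and so form the LINC complex, the linker of nucleoskeleton and cytoskeleton. In humans, variants in the genes for lamin A/C and emerin cause Emery-Dreifuss muscular dystrophy, in which the heart is affected, and lamin A/C variants are a known cause of dilated cardiomyopathy.

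Estimated counts over all mouse genes came to 35744013 for replicate 2 and to 31512596 for replicate 1. The cardiomyocyte markers fitted the heart label: all 8 were detected, with ventricular myosin light chain Myl2 at 8144 TPM in replicate 2 and 8793 TPM in replicate 1 (TPM is a level divided by transcript length and scaled to a fixed total per library). Levels come from a gene and transcript quantification with columns as RSEM writes them, called the first quantification here, and a transcript quantification with columns as kallisto writes them, called the second. The second gave TPM values whose median was 1.35 times the first over 12687 genes, so levels were compared within a quantification only. In whole tissue, fewer cells of a type and less RNA per cell cannot be told apart.

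All 10 members reached 1 TPM in both hearts, where 23.8% of all genes and 53.8% of nuclear protein-coding genes did so. Their median mean TPM was 26.4, against 12.2 for the 11854 expressed nuclear protein-coding genes. The highest mean TPM, that of Tmpo, was 9.28 times the lowest, that of Lmnb2. Each member had between 596 and 9838 estimated counts per heart. By mean TPM of the first quantification the order was Tmpo, Lmna, Lmnb1, Syne1, Syne2, Sun2, Emd, Lbr, Sun1 and Lmnb2. Along this order the values of the hearts overlapped between the neighbours Syne2 and Sun2, Emd and Lbr, and Lbr and Sun1, so those neighbours did not differ beyond the spread between hearts. The second quantification put Lmna above Tmpo and moved Lbr up to place 4 and Syne2 down to place 9.

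**Figure D1:**
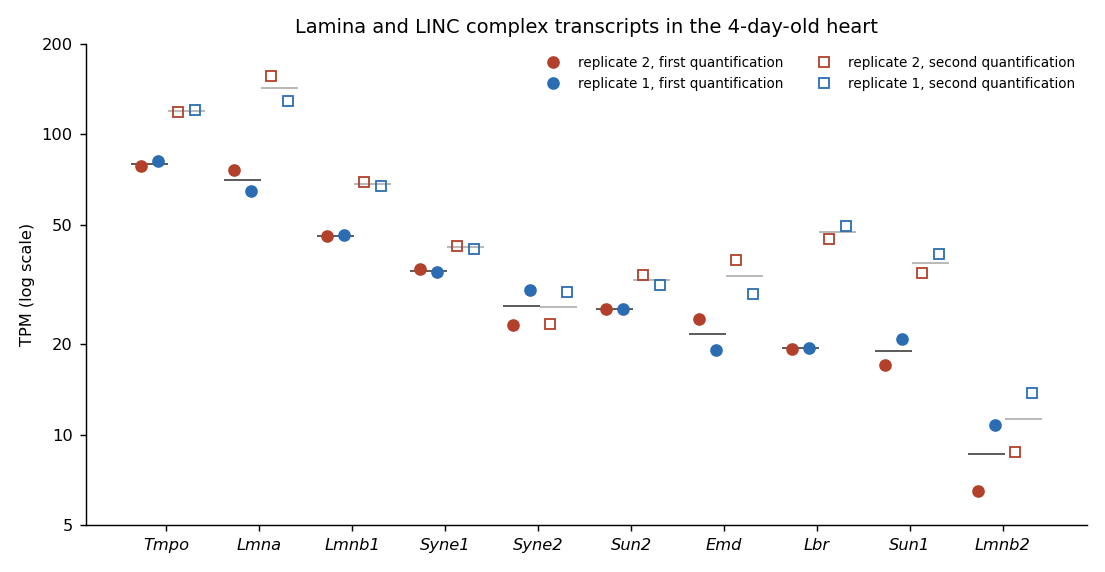
TPM of each member on a log axis, in replicate 2 (red) and replicate 1 (blue), by the first quantification (filled circles) and the second (open squares); horizontal lines are means of 2 hearts. Tmpo and Lmna lie highest and Lmnb2 lowest in both quantifications, and the step from circles to squares is widest for Lbr.

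Among the lamins, the A-type gene was highest and the second B-type gene lowest. Lmna (ENSMUSG00000028063.15, mm10 chr3:88480147-88509956, minus strand), which encodes lamins A and C, had 75.8 TPM in replicate 2 and 64.9 TPM in replicate 1 (70.4 ± 7.72, SD, n = 2). This placed it within the top 8.6% of expressed nuclear protein-coding genes. Lmnb1 (ENSMUSG00000024590.8, mm10 chr18:56707813-56753424, plus strand), which encodes lamin B1, had 45.7 TPM in replicate 2 and 46.2 TPM in replicate 1 (45.9 ± 0.346, SD, n = 2). Lmnb2 (ENSMUSG00000062075.13, mm10 chr10:80901203-80918245, minus strand), which encodes lamin B2, had 6.5 TPM in replicate 2 and 10.7 TPM in replicate 1 (8.61 ± 2.98, SD, n = 2). The 3 lamins kept this order in each heart with no overlap, and Lmnb2 was the member that varied most for its level.

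Set against each other within a heart, Lmna exceeded Lmnb1 by a log2 TPM ratio of 0.73 in replicate 2 and 0.49 in replicate 1 (0.61 ± 0.17, SD, n = 2, or 1.53-fold). Lmna exceeded Lmnb2 by 3.52 in replicate 2 and 2.59 in replicate 1 on the log2 scale (3.06 ± 0.66, SD, n = 2, or 8.31-fold). Lmnb1 exceeded Lmnb2 by 2.79 in replicate 2 and 2.10 in replicate 1 on the log2 scale (2.45 ± 0.49, SD, n = 2, or 5.45-fold). All 3 log2 ratios were therefore positive in both hearts, and more so in replicate 2. The A-type gene made up 59.2% of summed lamin TPM in replicate 2 and 53.3% in replicate 1. The second quantification gave 66.6% in replicate 2 and 61.5% in replicate 1.

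Lamin C was the leading product of Lmna by the first quantification. Lamins A and C share their first exons and part in exon 10: lamin C reads on into what is intron for lamin A and soon meets a stop codon, whereas lamin A is spliced to its exons 11 and 12. The coding sequences around this fork are shown because the forms separate there; lower case marks the 30 shared bases and capitals the 21 bases that follow, which in lamin C end with the stop codon. The lamin C stretch is mm10 chr3:88483297-88483347, and the lamin A stretch joins chr3:88483318-88483347 to chr3:88482592-88482612, all on the minus strand and read from the GENCODE M21 transcripts.
lamin C: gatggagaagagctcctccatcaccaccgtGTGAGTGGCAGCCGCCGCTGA
lamin A: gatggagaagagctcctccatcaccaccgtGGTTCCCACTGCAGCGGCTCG
Lamin C (Lmna-203, 574 codons) had 52.8 TPM in replicate 2 and 38.7 TPM in replicate 1, which was 69.6% and 59.6% of the TPM of Lmna (64.6 ± 7.08%, SD, n = 2). Lamin A (Lmna-201, 665 codons) had 21.4 TPM in replicate 2 and 22.1 TPM in replicate 1, or 28.3% and 34.0% (31.1 ± 4.04%, SD, n = 2). Lamin C thus exceeded lamin A in both hearts. The log2 ratio of lamin C over lamin A was 1.30 in replicate 2 and 0.81 in replicate 1. Unspliced Lmna RNA also covers the lamin C stretch, and annotated transcripts with a retained intron held 2.06% of the TPM of Lmna in replicate 2 and 2.84% in replicate 1; their part in the lamin C value was not tested.

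The lamin C share of all Lmna transcripts depended on the quantification. The second quantification assigned 28.0 ± 4.19% (SD, n = 2) of the TPM of Lmna to lamin C and 19.0 ± 1.47% (SD, n = 2) to lamin A. In replicate 2 and replicate 1 it gave 36.6% and 33.4% to Lmna-206, a transcript of 785 bases in 3 exons that covers upstream exons and the first coding exon only. It gave 15.8% to Lmna-202, which has the lamin C end and another first exon and whose coding length of 462 codons is shorter than that of lamin C; a short lamin C of this kind, lamin C2, is known in mouse germ cells. The first quantification put Lmna-202 at 0% in replicate 2 and 2.81% in replicate 1. Counting lamin A and lamin C transcripts alone, lamin C held 71.1% in replicate 2 and 63.7% in replicate 1 by the first quantification. The second gave 63.3% in replicate 2 and 55.6% in replicate 1, so lamin C exceeded lamin A in each heart by both.

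**Figure D2:**
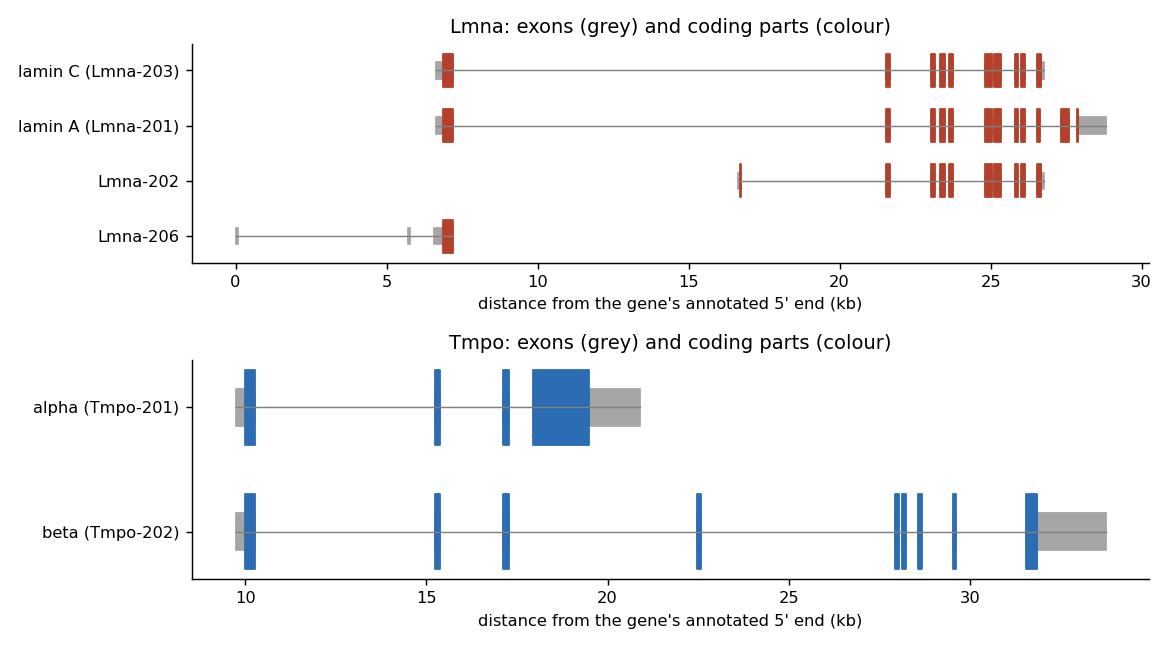
Exons (grey) and coding parts (colour) of 4 Lmna transcripts and 2 Tmpo transcripts, by distance in kb from the annotated 5′ end of each gene. The coding parts of lamins C and A differ only at the right, Lmna-202 starts at another first exon, Lmna-206 stops after the first coding exon, and the LAP2 forms part after 3 shared exons.

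Lamin A and the B-type lamins end in a CaaX box, a cysteine and 3 further residues that direct farnesylation of the tail, while lamin C has none. The last 27 coding bases of lamin A (mm10 chr3:88482074-88482100) and of lamin B2 (Lmnb2-201, mm10 chr10:80902859-80902885), both on the minus strand, are shown to place this signal; capitals mark its 4 codons and the stop codon, 5 codons in all.
lamin A end: agctcccagaacTGCAGCATCATGTAA
lamin B2 end: acctcaaggggcTGCCGACTGATGTGA
Both boxes open with the cysteine codon TGC. Transcripts that carry the lamin A box therefore held 31.1% of the TPM of Lmna by the first quantification, and the lamin C end, without a box, held most of the remainder.

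The B-type lamin genes had fewer annotated transcripts, 2 for Lmnb1 and 4 for Lmnb2, against 7 for Lmna. Lmnb1 had a single annotated coding transcript, Lmnb1-201 (588 codons), with 96.8% of the TPM of the gene in replicate 2 and 92.7% in replicate 1. The remainder was Lmnb1-202, a retained-intron transcript with 1.48 TPM in replicate 2 and 3.36 TPM in replicate 1. For Lmnb2 the first quantification gave 84.7 ± 8.40% (SD, n = 2) to Lmnb2-201 (615 codons) and, to Lmnb2-204 (596 codons), which lacks 57 coding bases of the other, 0% in replicate 2 and 5.04% in replicate 1. The second quantification gave 17.0% in replicate 2 and 6.14% in replicate 1 to Lmnb2-201, and 72.1% and 76.3% to Lmnb2-204. Which of these coding transcripts led was therefore not settled by these files, although the 2 quantifications assigned similar counts to the coding transcripts of Lmnb2 together: 591.6 in replicate 2 and 763.5 in replicate 1 by the first, and 605.5 and 778.2 by the second. The non-coding Lmnb2-203 held 9.2% of the TPM of the gene in the first quantification on 4.42 counts in replicate 2 and 11.5 counts in replicate 1.

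Of the inner membrane proteins, Tmpo was the highest and Emd and Lbr lay close together. Tmpo (ENSMUSG00000019961.17, mm10 chr10:91147571-91181315, minus strand), which encodes the LAP2 family, had 78.3 TPM in replicate 2 and 81.6 TPM in replicate 1 (79.9 ± 2.36, SD, n = 2). Emd (ENSMUSG00000001964.14, mm10 chrX:74254687-74261548, plus strand), which encodes emerin, had 24.2 TPM in replicate 2 and 19.1 TPM in replicate 1 (21.6 ± 3.61, SD, n = 2). Lbr (ENSMUSG00000004880.11, mm10 chr1:181815335-181843046, minus strand), the lamin B receptor and also a sterol reductase, had 19.3 TPM in replicate 2 and 19.5 TPM in replicate 1 (19.4 ± 0.127, SD, n = 2). Tmpo stood apart from the others in each heart, while Emd exceeded Lbr in replicate 2 and lay below it in replicate 1.

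Tmpo gave rise to LAP2 alpha, which lacks a membrane anchor and binds A-type lamins inside the nucleus, and to LAP2 beta, which spans the inner membrane and binds B-type lamins. The forms share 3 exons and then part, alpha into a single large last exon and beta into a chain of small ones; the bases on either side of the fork are shown because they define the forms. Lower case marks the last 30 shared coding bases (mm10 chr10:91164043-91164072, minus strand), and capitals mark the next 30, from chr10:91163332-91163361 in alpha and from chr10:91158816-91158845 in beta.
LAP2 alpha: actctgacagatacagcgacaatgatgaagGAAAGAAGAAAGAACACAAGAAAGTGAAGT
LAP2 beta: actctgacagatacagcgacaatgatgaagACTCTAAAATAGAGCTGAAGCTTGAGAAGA
LAP2 alpha (Tmpo-201, 693 codons) had 22.7 TPM in replicate 2 and 18.2 TPM in replicate 1. LAP2 beta (Tmpo-202, 452 codons) had 21.4 TPM in replicate 2 and 20.9 TPM in replicate 1. Alpha was thus the higher of the pair in replicate 2 and beta in replicate 1, with log2 ratios of alpha over beta of 0.08 and -0.20 by the first quantification and 0.21 and -0.02 by the second. Their mean ratio was within the spread between hearts (log2 -0.06 ± 0.20, SD, n = 2). Alpha took 562 of its 2082 coding bases from the stretch shared with beta.

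Shorter Tmpo transcripts with the beta end held 11.2 ± 0.184% (SD, n = 2) of the TPM of the gene; the main one was Tmpo-203 (412 codons) with 7.54 TPM in replicate 2 and 5.99 TPM in replicate 1. Non-coding Tmpo transcripts other than those with a retained intron, among them Tmpo-210, Tmpo-206 and Tmpo-213, held 26.5% in replicate 2 and 31.1% in replicate 1. Those with a retained intron held 6.08% in replicate 2 and 9.66% in replicate 1. Tmpo-208, with a retained intron, had 251.5 counts in replicate 2 and 347.4 in replicate 1. Emd was almost wholly 1 coding transcript by the first quantification, Emd-201 (259 codons), with 97.1% of its TPM in replicate 2 and 92.2% in replicate 1; the second quantification gave it 76.9% in replicate 2 and 68.9% in replicate 1. The rest of Emd differed between the hearts by the second quantification, with 2.32% in replicate 2 and 24.3% in replicate 1 for Emd-206, and 16.3% and 0% for Emd-203. For Lbr the first quantification gave 81.4% to Lbr-201 (626 codons), 7.26% to Lbr-203 and 5.57% to Lbr-206, the last pair with a retained intron. The second quantification gave 41.8 ± 2.91% (SD, n = 2) to Lbr-201 and 43.7 ± 7.45% (SD, n = 2) to Lbr-205, a coding fragment of 648 bases, and put Lbr-202 at 4.86% on average.

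The 2 SUN genes lay close to each other. Sun2 (ENSMUSG00000042524.14, mm10 chr15:79724070-79742536, minus strand) had 26.1 TPM in both hearts (SD 0.0141, n = 2). Sun1 (ENSMUSG00000036817.14, mm10 chr5:139200637-139249840, plus strand) had 17.1 TPM in replicate 2 and 20.8 TPM in replicate 1 (18.9 ± 2.61, SD, n = 2). The log2 TPM ratio of Sun1 over Sun2 was -0.61 in replicate 2 and -0.33 in replicate 1 (-0.47 ± 0.20, SD, n = 2), so Sun1 was lower in both hearts by the first quantification. By the second the ratio had the opposite sign, with 0.02 in replicate 2 and 0.34 in replicate 1, so the order of the SUN genes was not fixed by these data.

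Both SUN genes were spread over several coding transcripts. Sun1-201 (913 codons, 23 exons) held 30.7 ± 0.210% (SD, n = 2) of the TPM of Sun1. Sun1-205 (790 codons), which lacks 3 exon pieces of 369 coding bases in all, held 18.8 ± 1.17%, and Sun1-202 (849 codons), which lacks 192 coding bases, held 14.6 ± 8.40% (SD, n = 2). The share of Sun1-202 was the least steady of these, with 3.5 TPM in replicate 2 and 1.79 TPM in replicate 1. Each of Sun1-211, Sun1-217, Sun1-216 and Sun1-208 reached at least 5% in a heart by the first quantification. By the second, the coding fragment Sun1-219 of 641 bases led with 26.4%, and Sun1-212 held 13.4%. Sun2-201 (731 codons) held 45.1 ± 8.23% (SD, n = 2) of the TPM of Sun2 by the first quantification and 50.8% by the second. Sun2-202 (699 codons), which lacks a stretch of 96 coding bases, held 13.3% in replicate 2 and 6.01% in replicate 1, and Sun2-203 (729 codons) held 15.3% in replicate 2 and 25.9% in replicate 1. Smaller shares went to Sun2-204, Sun2-205, Sun2-206, Sun2-208 and Sun2-209.

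Sun2-201 and Sun2-203 differ by 6 coding bases where an exon begins at either of 2 splice sites. The longer form is shown with these bases in capitals between 24 bases on each side (mm10 chr15:79737066-79737089 joined to chr15:79735896-79735925, minus strand); the shorter form is the same stretch without them.
Sun2-201: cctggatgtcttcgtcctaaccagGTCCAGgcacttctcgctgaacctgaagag
Sun2-201 had 1422 counts in replicate 2 and 924.2 in replicate 1, with deposited posterior SDs of 170.9 and 119.9. Sun2-203 had 423.7 counts in replicate 2 and 602.9 in replicate 1, with posterior SDs of 141.8 and 102.5. The log2 ratio of Sun2-201 over Sun2-203 was 1.71 in replicate 2 and 0.60 in replicate 1 by the first quantification, and 1.93 and 0.68 by the second. The longer form was therefore the higher in each heart by both quantifications, by an amount that differed between hearts, while the TPM of the whole gene was nearly equal in them. Sun2-201 is 3804 bases long and Sun2-203 is 3768, so they also differ outside the coding part. Their ratio was therefore not a measure of the use of these splice sites alone.

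The nesprin genes had long transcripts, so their counts were the highest of the members together with those of Tmpo, and their TPM lay in the middle. Syne1 (ENSMUSG00000096054.3, mm10 chr10:5020917-5551482, minus strand), which encodes nesprin-1, had 35.5 TPM in replicate 2 and 34.7 TPM in replicate 1 (35.1 ± 0.537, SD, n = 2). Syne2 (ENSMUSG00000063450.14, mm10 chr12:75818134-76110926, plus strand), which encodes nesprin-2, had 23.2 TPM in replicate 2 and 30.3 TPM in replicate 1 (26.8 ± 5.02, SD, n = 2). The log2 TPM ratio of Syne1 over Syne2 was 0.61 in replicate 2 and 0.20 in replicate 1 (0.40 ± 0.29, SD, n = 2), so nesprin-1 was higher in both hearts.

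The nesprins end in a KASH domain, whose last residues lie in a groove of the SUN domain. The last 60 coding bases of Syne1 (mm10 chr10:5022007-5022066, minus strand) and of Syne2 (mm10 chr12:76109985-76110044, plus strand) are shown because this end carries the LINC contact; capitals mark the last 4 codons and the stop codon.
nesprin-1 end: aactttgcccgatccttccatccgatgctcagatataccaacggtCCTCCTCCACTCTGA
nesprin-2 end: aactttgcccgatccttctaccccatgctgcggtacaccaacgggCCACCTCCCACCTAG
The ends were identical at 46 of 60 bases (76.7%). For Syne1 this end was carried by the giant transcript Syne1-205 (146 exons, 8799 codons) and by the short Syne1-202 (17 exons, 949 codons), which stops at the same codon. Short nesprin-1 forms that keep the KASH domain and lack the actin-binding start are known in muscle.

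Per length, the short Syne1 transcript exceeded the giant in both hearts. Syne1-202 had 18.3 TPM in replicate 2 and 19.0 TPM in replicate 1, or 53.1 ± 2.14% (SD, n = 2) of the TPM of Syne1. Syne1-205 had 9 TPM in replicate 2 and 8.32 TPM in replicate 1, or 24.7 ± 1.00% (SD, n = 2). The log2 ratio of short over giant was 1.02 in replicate 2 and 1.18 in replicate 1 by the first quantification, and 0.68 and 0.94 by the second. In estimated counts, not divided by length, the order was the opposite: the giant took 73.3% of the counts of Syne1 in replicate 2 and 71.8% in replicate 1. Syne1-206, a coding fragment without a complete annotated reading frame here, held 15.2 ± 1.34% (SD, n = 2) of TPM.

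Syne2 had no such leading short form with the KASH end. Its giant transcript Syne2-210 (115 exons, 6870 codons) had 7.55 TPM in replicate 2 and 9.95 TPM in replicate 1, or 32.6 ± 0.208% (SD, n = 2) of the TPM of Syne2. Short transcripts with the giant end, led by Syne2-202 (2152 codons), held 6.84% in replicate 2 and 5.83% in replicate 1. The rest went to fragments and non-coding transcripts, among them Syne2-206, Syne2-212, Syne2-209, Syne2-213 and Syne2-217 with 7.49% to 14.4% each. The second quantification gave 45.4% to the giant and 22.9% to Syne2-211, a fragment of 639 bases that the first left at 0 TPM in replicate 2 and 0.14 TPM in replicate 1. The giants of both genes were at like levels, with a log2 TPM ratio of giant nesprin-1 over giant nesprin-2 of 0.25 in replicate 2 and -0.26 in replicate 1.

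**Figure D3:**
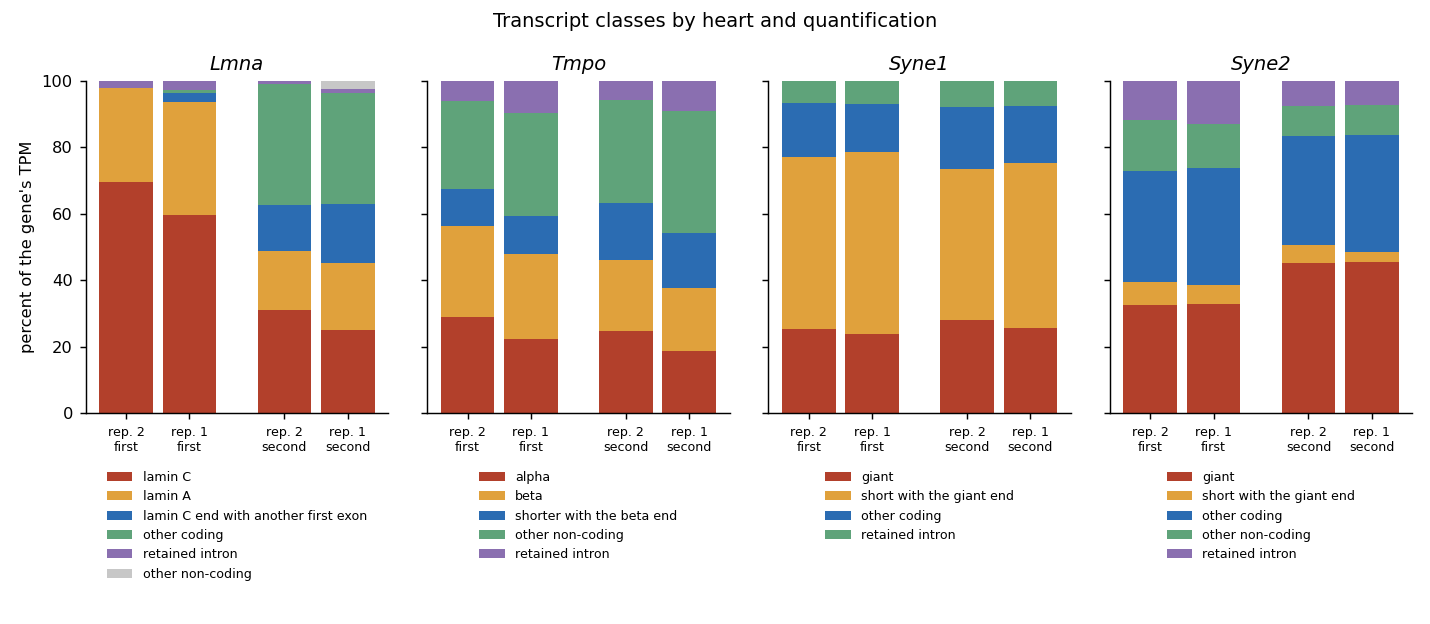
Percent of the TPM of each gene held by transcript classes of Lmna, Tmpo, Syne1 and Syne2, with replicate 2 left of replicate 1, by the first quantification (left pair) and the second (right pair). The hearts resemble each other within a quantification; the lamin C and lamin A bars of Lmna shrink in the second, where other coding transcripts hold 36.6% in replicate 2 and 33.4% in replicate 1.

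The quantifications also differed in the level of whole genes. Lbr averaged 19.4 TPM by the first and 47.3 TPM by the second, a log2 gap of 0.85 after the median gap of all genes was taken out. It was the only member past 1.5-fold on that centred scale, where 7.03% of all genes were. Its coding transcripts had 1549 counts in replicate 2 and 1340 in replicate 1 by the first quantification and 1749 and 1540 by the second, so the counts differed far less than the TPM. The fragment Lbr-205 held 9.12% of the TPM of Lbr in replicate 2 and 0.0513% in replicate 1 by the first quantification, and 49.0% and 38.5% by the second. The centred log2 gap was 0.58 for Lmna and 0.54 for Sun1, and it had the opposite sign, -0.44, for Syne2. In each of these genes the second quantification gave a larger share to a short fragment. In Syne2, however, other short fragments lost share. Syne2-212, of 585 bases, averaged 11.4% by the first quantification and 0.165% by the second. Syne2-209, of 440 bases, went from 9.21% in replicate 2 and 10.9% in replicate 1 to 0%. Coding transcripts of Syne2 without the giant end together averaged 34.3% by the first and 33.9% by the second. The part of fragments in these gaps was not tested.

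Between the hearts the members differed about as much as other genes did. The log2 ratio of replicate 2 over replicate 1, on TMM-scaled counts (TMM, trimmed mean of M values, sets libraries to a common scale), was above 0 for 8 members and below 0 for Lmnb2 and Syne2, where 49.5% of all 16271 filtered genes were higher in replicate 2. Of the members, 0 passed 1.5-fold in either direction, where 12.3% of all genes did, and 0 passed 2-fold, where 3.06% did. The median log2 ratio of the members was 0.17, against -0.0033 for all filtered genes and 0.02 for filtered nuclear protein-coding genes. The median size of the ratio without its sign was 0.20 for the members, 0.19 for all filtered genes and 0.17 for filtered nuclear protein-coding genes. With 1 library on each side no p-value can be given, and the intervals below cover counting error only.

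Emd had the most positive ratio and Lmnb2 the most negative. Emd had 1029 counts in replicate 2 and 670.2 in replicate 1, a log2 ratio of 0.50 (95% interval 0.36 to 0.65). Lmnb2 had 596 counts in replicate 2 and 775 in replicate 1, a log2 ratio of -0.49 (95% interval -0.65 to -0.34). Lmna had 4986 counts in replicate 2 and 3675 in replicate 1, a log2 ratio of 0.32 (95% interval 0.26 to 0.39). Syne2 had 5745 counts in replicate 2 and 6270 in replicate 1, a log2 ratio of -0.24 (95% interval -0.29 to -0.19). Genes of the same group thus lay on both sides of 0: Lmna and Lmnb1 (log2 0.16) against Lmnb2, and Syne1 (log2 0.21) against Syne2. Tmpo (log2 0.19), Sun2 (log2 0.17), Lbr (log2 0.04) and Sun1 (log2 0.02) filled the space between, and the intervals of Lbr and Sun1 included 0. On deposited TPM the median of all filtered genes was itself -0.13, and 4 members were above 0; relative to that median 7 members were higher in replicate 2.

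**Figure D4:**
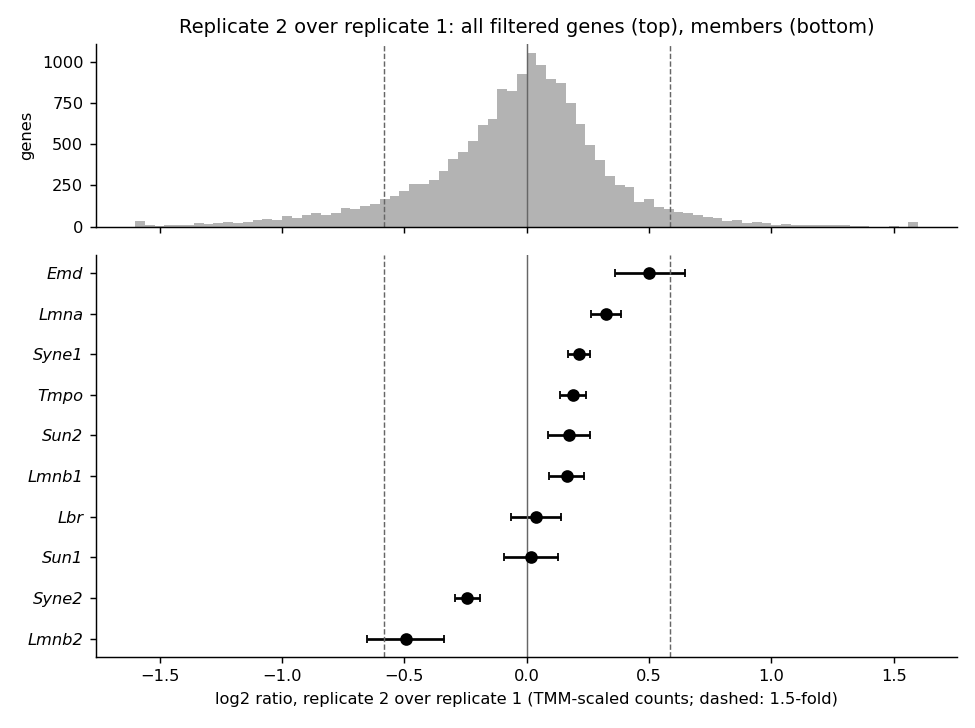
Log2 ratio of replicate 2 over replicate 1 on TMM-scaled counts, for all 16271 filtered genes (upper histogram, values beyond the axis gathered in its end bins) and for the 10 members (lower, bars are 95% counting intervals); dashed lines mark 1.5-fold. All member points lie inside the dashed lines, with Emd rightmost and Lmnb2 leftmost.

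The ratio between hearts also differed among the transcripts of a member. Lamin C had 2924 counts in replicate 2 and 1807 in replicate 1, a TMM-scaled log2 ratio of 0.58. Lamin A had 1889 counts in replicate 2 and 1638 in replicate 1, a log2 ratio of 0.09. The excess of Lmna counts in replicate 2 thus lay mainly on lamin C, and the second quantification gave 0.64 for lamin C and 0.18 for lamin A. LAP2 alpha had a log2 ratio of 0.45 and LAP2 beta of 0.16 by the first quantification, and 0.46 and 0.23 by the second. Giant nesprin-1 had 0.24 by both, while short nesprin-1 had 0.08 by the first and -0.03 by the second. Counts of both quantifications were scaled here with the library sizes of the first, so the sign of a value this small was not settled. Among the Sun2 forms the log2 ratio was 0.50 for Sun2-201, -0.62 for Sun2-203 and 1.27 for Sun2-202 by the first quantification, and 0.51, -0.75 and 1.46 by the second. That of Lmnb2-201 was -0.39 by the first and 0.86 by the second, on 118.5 counts in replicate 2 and 59.4 in replicate 1 by the second.

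Transcripts with a retained intron lay lower in replicate 2, in the members as in all genes. Of 15 such member transcripts with a mean of at least 20 counts, 10 were lower in replicate 2, with a median log2 ratio of -0.58. Of 8125 such transcripts of all genes, 74.9% were lower, with a median of -0.38. The members' coding transcripts had a median log2 ratio of 0.07, and those of all genes 0.03. Sun2-210 had 50.5 counts in replicate 2 and 100.7 in replicate 1 (log2 -1.08), and Sun2-208 had 71.0 and 135.6 (log2 -1.03). Lmna-205 (log2 0.02), Syne1-204 (log2 0.60), Syne1-209 (log2 0.22), Sun2-205 (log2 0.20) and Syne2-207 (log2 0.01) were the 5 that were not lower by the first quantification. By the second, 11 of 15 were lower, with Lmna-205 (log2 -0.48) and Syne2-207 (log2 -0.33) among them and Syne2-217 (log2 0.02) not.

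Some markers of other cells, and G2/M genes, which mark dividing cells of any type, also differed between the hearts. Red cell markers, led by Hbb-bs, Hba-a1 and Hba-a2, were at a summed 5293 TPM in replicate 2 and 1409 TPM in replicate 1, with a median log2 ratio of 1.90 over the 7 of 8 genes matched by symbol. The 8 fibroblast markers, led by Col3a1, Col1a1 and Postn, summed to 1905 TPM in replicate 2 and 1404 TPM in replicate 1, with 7 higher in replicate 2 and a median log2 ratio of 0.48. All 16 G2/M genes, led by Top2a, Cdk1 and Ube2c, had a log2 ratio above 0 on TMM-scaled counts, with a median of 0.50. The lowest, that of Cenpe, was 0.0046, and its TPM was 8.58 in replicate 2 and 8.94 in replicate 1. Of the 16, 6 passed 1.5-fold upward, where 4.22% of all genes did. The cardiomyocyte markers, led by Myl2, Myh6 and Actc1, summed to 33312 TPM in replicate 2 and 35749 TPM in replicate 1, with a median log2 ratio of -0.02. The median was 0.05 for 8 endothelial markers, led in level by Egfl7, Cdh5 and Pecam1, with 5 higher in replicate 2. It was 0.19 for 8 macrophage markers, led in level by Lyz2, Csf1r and C1qb, with 6 higher in replicate 2. Egfl7 (log2 -0.28) and Lyz2 (log2 -0.50) were themselves lower in replicate 2. None of these detected markers was at 0 in a heart, and their part in the ratios of the lamina genes was not tested.

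Genes that work with the lamina were expressed across a wide range. Of 13 further genes for inner membrane proteins, LEM domain proteins, torsins and torsin-binding proteins, 12 reached 1 TPM in both hearts. The highest were Tmem201 (40.5 TPM), Tor1aip2 (30.8 TPM) and the lamina-associated Tor1aip1 (23.9 TPM), and Lemd1 had 0 counts in both. All 5 genes that process the CaaX tail were expressed: the farnesyltransferase subunit Fnta averaged 28.5 TPM, the methyltransferase Icmt had 13.5 TPM in replicate 2 and 14.6 TPM in replicate 1, and Zmpste24, the protease that matures prelamin A, averaged 9.78 TPM. The chromatin partners had a median of 45.0 TPM over 6 genes, led by the DNA-bridging Banf1 (97.4 TPM) and the heterochromatin proteins Cbx3 (71.6 TPM) and Cbx5 (58.0 TPM). The lamin and emerin binding genes were the highest list, with a median of 102 TPM over 4 genes, and held Lmo7 (224 TPM), which binds emerin, Fhl1 (131 TPM) and Mlip (72.1 TPM), named for its binding to lamin A/C. None of the genes in these lists or in the cytoskeletal, muscle and nuclear pore lists that passed the filter on low counts was past 1.5-fold between hearts, where 12.3% of all filtered genes were.

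On the cytoplasmic side of the LINC complex, all 10 perinuclear anchor genes were expressed, with a median of 39.5 TPM. Desmin (Des, 336 TPM), plectin (Plec, 108 TPM), which links nesprin-3 to intermediate filaments, and kinesin light chain 1 (Klc1, 79.5 TPM) were the highest. Of 6 other SUN and KASH genes only Syne3 (3.52 TPM), Sun3 (3.42 TPM) and Syne4 (1.34 TPM) reached 1 TPM in both hearts, and Spag4 (0.345 TPM), Ccdc155 (0.06 TPM) and Sun5 (0 counts) did not. The 4 members of the LINC complex were thus above every one of these 6 genes in TPM. The muscle nuclear envelope genes Tmem38a (96.1 TPM), Tmem214 (22.4 TPM) and Wfs1 (12.7 TPM) were detected. Of 29 nuclear pore genes 28 were expressed, led by Tpr (67.6 TPM), Sec13 (52.4 TPM) and Nup88 (33.1 TPM). The entry under the symbol Nupl1 was at 0.02 TPM in replicate 2 and 0 in replicate 1. Genes were taken by symbol and entries under other symbols were not searched, so this value does not show that the pore protein is absent. On TMM-scaled counts, 23 of the 28 expressed pore genes were higher in replicate 2, with a median log2 ratio of 0.11. On that scale 49.5% of all filtered genes were higher and their median was -0.0033. By deposited TPM the 29 pore genes summed to 528 in replicate 2 and 537 in replicate 1, and the median log2 ratio of all filtered genes was -0.13.

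**Figure D5:**
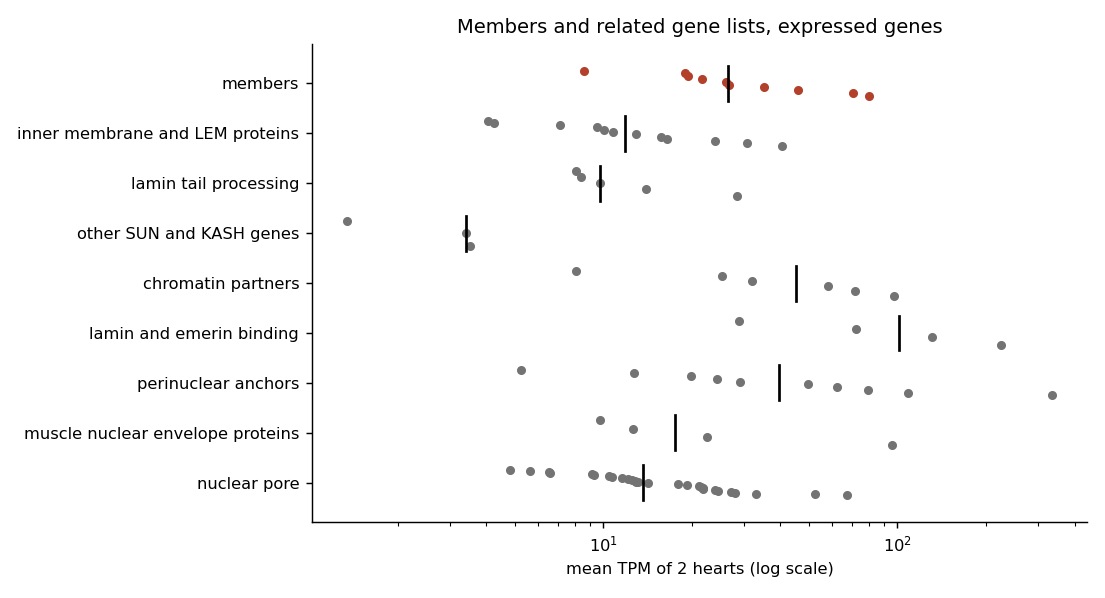
Mean TPM of 2 hearts on a log axis for the members (red) and 8 related lists (grey), each point an expressed gene and each vertical line the median of the expressed genes in that list. The members span 8.61 to 79.9 TPM, above the expressed other SUN and KASH genes.

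The genes nearest in level were found among 11327 nuclear protein-coding genes by the distance of log2 TPM in the 2 libraries. Those closest to Lmna were Sub1 (distance 0.0235), Pcna (0.0294) and Selenop (0.0318). Those closest to Lmnb1 were Srsf7 (distance 0.00906), Pcmt1 (0.0109) and Ufc1 (0.0138). With 2 libraries this measure shows a like level only.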

How the data were processed

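Total RNA-seq libraries of 2 hearts were analysed. Per the file headers, the first quantification gives each expected count and TPM per gene and transcript, with a posterior SD of each transcript's count, in columns as RSEM writes them. The second, also per the file headers, gives an estimated count and TPM per transcript, in columns as kallisto writes them. The deposited notes name mm10 and GENCODE M21; no aligner or tool version is named in the sources used here. The authors computed TPM over all rows, spike-ins included; 26249 numbered rows that name no gene, with under 5 counts per library, were left out.

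The members and lists were chosen with earlier results of these data known. Named were all members, each transcript with at least 5% of its gene's TPM in either heart by either quantification, each list's 3 highest genes and those under 1 TPM, and the 3 genes nearest in level to Lmna and Lmnb1; an item this rule names is not reported here. Gene-pair ratios used a pseudocount of 0.1 TPM. Gene ratios between hearts used counts, rounded to whole numbers and scaled by TMM in edgeR 4.0.16 (R 4.3.3) with a prior count of 2 after edgeR's filter on low counts. Transcript ratios between hearts used unrounded counts of either quantification, each raised by 2, without that filter. They were scaled by the library sizes that TMM gave for gene counts of the first quantification. The script for gene ratios was tested on simulated data. Counting intervals assume Poisson counts and cover counting error only. Depth was 31512596 to 35744013 counts, and the common biological coefficient of variation between the libraries was 15.2%. Sequences are those of the mm10 reference, not of the CAST/EiJ alleles. Alternatives were another scaling (DESeq2 1.42.0 size factors or spike-in totals), filter, pseudocount, quantification and leaving out each heart.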

Additional observations from a re-analysis of the deposited data

How the results depend on the processing

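No paired analysis was possible because there is only 1 group. All 10 members stayed expressed by the second quantification and in each heart alone (range 10 to 10), and 9 at 10 TPM. The median log2 ratio between hearts was 0.17 to 0.21 with DESeq2 size factors, spike-in totals or no filter, but -0.014 on deposited TPM and 0.0081 on second-quantification TPM; less the median of all filtered genes, an alternative added after the data were seen, both gave 0.12. By the second quantification the log2 ratio of Lmna over Lmnb1 was 1.06, that of Sun1 over Sun2 was 0.18, the opposite sign, and the lamin C share was 28.0%; with lamin A and C transcripts alone, also added later, it was 67.4% by the first and 59.5% by the second. Counts not divided by length gave 0.42 for Lmna over Lmnb1, -0.74 for Sun1 over Sun2 and a lamin C share of 53.9%. Leaving out a heart gave ranges of 0.49 to 0.73 for Lmna over Lmnb1, 2.59 to 3.52 for Lmna over Lmnb2, 2.10 to 2.79 for Lmnb1 over Lmnb2, -0.61 to -0.33 for Sun1 over Sun2, 0.20 to 0.61 for Syne1 over Syne2 and 59.6% to 69.6% for lamin C. Second-quantification TPM put the between-heart log2 ratios of Tmpo, Lbr and Sun1 at -0.015, -0.14 and -0.21. The cause was not tested. A value of 1 heart, when the other is left out, has no error of its own.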
